A study of Mus musculus with 4 samples.

Results

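The mRNAs described here encode 10 proteins of the cytosolic translation machinery, or proteins made together with it, whose mRNAs carry a 5' terminal oligopyrimidine (TOP) tract and which are not ribosomal proteins. They are a list of names in which no measured value was used as a criterion, drawn up with earlier results of these data known, and comprise Eef1a1, Eef1a2, Eef1b2, Eef1d, Eef1g, Eef2, Tpt1, Pabpc1, Npm1 and Eif4b. All 10 were found among the 15746 genes of the deposited table, which lists 12321 protein-coding genes. RNA was sequenced from isolated mitochondria and from the remaining tissue fraction ("rest") of wild-type (WT) adult mouse hearts, with 2 libraries for each fraction. The study asked which nuclear-encoded RNAs, long noncoding RNAs above all, are found with cardiac mitochondria.

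The rest fraction was the pellet of cell debris from the slow spin of a heart homogenate, and mitochondria were pelleted from its supernatant by a faster spin. The liquid above the mitochondria was removed, so neither fraction is the soluble cytosol. The mitochondria were incubated with digitonin, a detergent that opens cholesterol-rich membranes, and with RNase A before RNA was isolated. The fragmentation time of the mitochondrial libraries was also adapted to the size of their RNA. These steps are described for mitochondria and not for the rest fraction, so their effects cannot be told apart from that of the fraction. The labels do not say that the libraries of a fraction came from separate animals, so the p-values below measure a spread between libraries that may be technical.

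A TOP mRNA begins with a cytosine followed by a run of pyrimidines directly after the cap. This tract places translation of the mRNA under control of the mTOR kinase and of the cap-binding protein LARP1, so that cells make ribosomes and translation factors together when nutrients are plentiful. Heart muscle is a long-lived tissue in which mTOR activity is tied to growth, and it uses 2 forms of the elongation factor eEF1A, of which Eef1a2 is the form of muscle and neurons.

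The tract was read from the transcript sequences of the GENCODE M21 annotation on GRCm38, as a C followed by at least 4 bases that are each C or T. The following 30-base sequences are shown because they are the feature that defines the class, with the tract in capitals. For Eef1d, Tpt1 and Pabpc1 they are the first bases of an annotated transcript, that of Tpt1 being a retained-intron form. For Eef1a1 the tract lay 53 bases inside the annotated transcript and is printed with the 5 bases before it.
Eef1d: CTCTCCTTTgcagtcctgagctcgcagttc
Tpt1: CTTTTCCgcccgctcccccctccccccgcg
Pabpc1: CCCCTTCTCCCCggcggttagtgctgagag
Eef1a1: acgttCTTTTTCgcaacgggtttgccgtca

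These stretches lie at chr15:75909277-75909306 on the minus strand (Eef1d), chr14:75845331-75845360 on the plus strand (Tpt1), chr15:36608944-36608973 on the minus strand (Pabpc1) and chr9:78481647-78481676 on the minus strand (Eef1a1). Other genes of the set lie at chr2:181147653-181157014 on the minus strand (Eef1a2), chr19:8967041-8978479 on the plus strand (Eef1g), chr11:33152287-33163206 on the minus strand (Npm1) and chr15:102073773-102097173 on the plus strand (Eif4b), and their annotated transcripts do not begin with the tract. An annotated transcript began with the tract for 4 of the 10 genes, for 35 of 78 cytosolic ribosomal protein genes (44.9%) and for 1354 of 12319 protein-coding genes (10.99%). A run of this kind somewhere in the first 100 bases was present in 73.1% of protein-coding genes, so its presence inside the first exon sets no gene apart. Annotated starts are not mapped starts, and the reads of this series were not used to place them.

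Values are normalized counts, which are read counts per gene divided by a size factor of the library and rounded. The libraries differed in depth and in mitochondrially encoded RNA, which took 97.6% and 93.5% of the normalized counts after isolation of mitochondria and 63.2% and 67.5% in the rest fraction. The sums of normalized counts were 183395941 and 81928351 for mitochondria and 6956699 and 8584617 for rest. The spacing of low values showed that a read in mitochondrial replicate 1 was worth 3.87 normalized counts, a read in replicate 2 was worth 2.55, and a read in either rest library at most 1. The mitochondrial values of the 10 genes thus rested on about 88 reads (Eef1g, replicate 1) to 1521 reads (Tpt1, replicate 2), so that counting error is part of the spread between the mitochondrial replicates of the lower genes.

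The 10 mRNAs were all higher in mitochondria than in the rest fraction as deposited, by 1.17-fold to 3.68-fold, although all 10 were lower when the libraries were scaled to their total, which is mostly mitochondrially encoded RNA. For 10 of 10 both mitochondrial values lay above both rest values, against 27.7% of the 12150 genes tested. Among the protein-coding genes of similar mean normalized count described below, this share was 35.4% (neighbours of Eef1d) to 64.7% (neighbours of Eef1a2). Npm1 and Tpt1 passed the test of limma with Benjamini-Hochberg adjustment over all genes tested, which makes 2 of 10 against 2.16% of all genes called higher, and none was called lower against 1.39%. At an unadjusted p under 0.05, 7 of 10 were higher, against 14.1% of all genes. The median log2 fold change of the 10 was 0.72, compared with -0.14 for all genes tested. The median of all genes tested moved to -3.93 under scaling to the library total and to -0.98 under scaling to the total without mitochondrially encoded RNA. The median of the 10 mRNAs lay above it by 0.67 and 0.83 under these scalings and by 0.86 as deposited. Each of the 10 was above the median of all genes tested under every scaling, filter and left-out library that was run. All 10 had values of 100 or more in each library, so the filter on low values (2 or more libraries with 10 or more normalized counts) did not select among them.

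**Figure D1:**
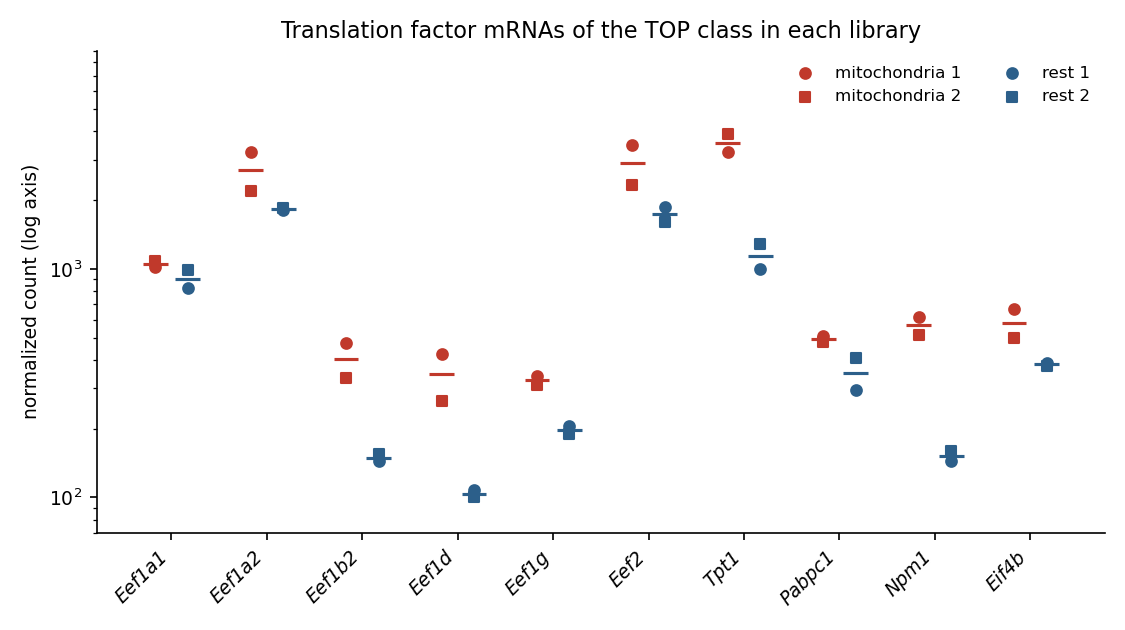
Normalized count (log axis) of each of the 10 mRNAs in the 2 mitochondrial and the 2 rest libraries, with circles for replicate 1, squares for replicate 2 and bars for the fraction means. For every gene both mitochondrial values sit above both rest values in the deposited scaling, with the widest separation for Npm1 and the narrowest for Eef1a1, whereas scaling to the library total turns all 10 differences negative.

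Together the 10 mRNAs took 0.644% and 0.647% of the normalized counts of nuclear protein-coding genes in mitochondria, compared with 0.338% and 0.348% in rest. The share does not depend on the scaling of a library, and it did not overlap between the fractions. The giant sarcomere gene Ttn and the myosin gene Myh6 alone took 13.8% and 12.5% of these counts in mitochondria and 25.6% and 22.4% in rest. Without them the share of the 10 mRNAs was 0.747% and 0.740% against 0.454% and 0.448%.

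Elongation factor 1A delivers aminoacyl-tRNAs to the ribosome. Eef1a1, its widely expressed form, had 1022 and 1082 normalized counts in mitochondria and 822 and 984 in rest. The gap between the fractions was smaller than the spread of the rest libraries, with means of 1052 ± 42.4 against 903 ± 115 (SD, n = 2 each). The log2 fold change was 0.23 (SE 0.176) with an adjusted p of 0.429 in limma. Eef1a2, the muscle form, had 3230 and 2201 in mitochondria against 1817 and 1849 in rest. Its mitochondrial libraries lay far apart while its rest libraries were close, and the log2 fold change of 0.54 (SE 0.241) did not pass the test in limma (adjusted p = 0.209).

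The ratio of Eef1a1 to Eef1a2 within a library does not depend on scaling either. It was 0.316 and 0.492 in mitochondria and 0.452 and 0.532 in rest. These values overlapped, and the log2 ratio differed by -0.32 between fractions (two-sided exact permutation test, p = 0.667, where 2 libraries against 2 cannot give less than 0.33). Without mitochondrial replicate 1 the difference was 0.0027, so its sign rested on that library.

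Elongation factor 1B reloads eEF1A with GTP, and the mRNAs of its subunits had unequal fold changes. Eef1d, which encodes the exchange subunit eEF1B-delta, had 426 and 265 normalized counts in mitochondria and 108 and 100 in rest, a log2 fold change of 1.68 (SE 0.282). Eef1b2, which encodes the exchange subunit eEF1B-alpha, had 473 and 332 against 144 and 155, a log2 fold change of 1.40 (SE 0.236). For Eef1d the gap between fractions was slightly smaller than that between the mitochondrial replicates, and for Eef1b2 it was larger. Both genes missed the threshold in limma with adjusted p-values of 0.0529 and 0.0530. Both passed it with the replicate number as a block (0.0315 and 0.0398). Eef1g, which encodes the structural subunit eEF1B-gamma, had 341 and 311 in mitochondria and 206 and 189 in rest. Its replicates were close in both fractions, and its log2 fold change of 0.72 (SE 0.173) had an adjusted p of 0.0769 in limma.

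Within each library the ratio of Eef1d to Eef1g was 1.249 and 0.852 in mitochondria and 0.524 and 0.529 in rest, and that of Eef1b2 to Eef1g was 1.39 and 1.07 against 0.699 and 0.820. Neither ratio overlapped between the fractions. The log2 ratios differed by 0.97 and 0.68, each with the smallest p that the exact permutation test can give (0.33). These ratios were not planned and restate the fold changes given above, so they add no separate evidence. In these libraries the mRNAs of both exchange subunits were more abundant relative to that of the structural subunit in mitochondria. With 2 libraries a fraction the permutation test cannot decide whether this holds beyond them. Over genes of similar mean and length, described below, the excess was 1.51 for Eef1d, 0.78 for Eef1b2 and 0.09 for Eef1g. With the shortest complete transcripts in place of the lengths used here it was 0.18, -0.15 and 0.09.

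Eef2 encodes the factor that moves the ribosome along the mRNA after each peptide bond. It had 3486 and 2332 normalized counts in mitochondria and 1859 and 1608 in rest. The gap between fractions was smaller than that between the mitochondrial replicates, and the log2 fold change of 0.72 (SE 0.257) had an adjusted p of 0.149 in limma. Eif4b encodes the cofactor of the RNA helicase eIF4A and is the single initiation factor of the set. It had 666 and 497 in mitochondria against 389 and 375 in rest, with a log2 fold change of 0.59 (SE 0.207, adjusted p = 0.146 in limma). Pabpc1 encodes the cytoplasmic poly(A) binding protein that joins the tail of an mRNA to its cap. It had 511 and 480 against 296 and 406, and here the rest replicates were the ones apart (log2 fold change 0.51, SE 0.217, limma adjusted p = 0.192).

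The 2 mRNAs that passed the test encode proteins beyond the elongation cycle. Tpt1 encodes the translationally controlled tumour protein, a small protein that binds elongation factors and is made in large amounts by growing cells. It had 3261 and 3880 normalized counts in mitochondria and 1003 and 1284 in rest. The lowest mitochondrial value was above the highest rest value by more than the range within either fraction, and the log2 fold change was 1.65 (SE 0.212, adjusted p = 0.0427 in limma). Npm1 encodes nucleophosmin, a nucleolar chaperone of ribosome assembly. It had 616 and 515 in mitochondria and 145 and 160 in rest, with a log2 fold change of 1.88 (SE 0.187, adjusted p = 0.0427 in limma). It was the most enriched of the 10 in the deposited scaling and ranked 244 among the 12150 genes tested.

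Both calls were lost with a pseudocount of 0.1 in place of 1 (limma adjusted p of 0.0543 for each), the call of Tpt1 also under scaling to the total without mitochondrially encoded RNA (0.0704), and both whenever any library was left out. Across the 4 left-out libraries the adjusted p in limma was 0.0523 to 0.526 for Npm1 and 0.0687 to 0.526 for Tpt1, while their log2 fold changes stayed between 1.75 and 2.01 and between 1.47 and 1.83. Under scaling to the library total both genes were instead called lower in mitochondria. Their log2 fold changes were then -2.09 for Npm1 and -2.34 for Tpt1 (limma adjusted p of 0.000947 and 0.000151). Against Eef1a1 in the same library, Tpt1 was 3.19 and 3.59 times as abundant in mitochondria and 1.22 and 1.30 times in rest. The ratio of Npm1 to Eef1a1 was 0.603 and 0.476 against 0.176 and 0.163. These ratios were not planned either and restate the fold changes, that of Eef1a1 being the lowest of the set (0.23).

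Levels of different genes can be set side by side only per length, and several of these genes have processed pseudogenes, reverse-transcribed copies with nearly the same sequence. Reads aligning to more than a single region were excluded when the counts were made. Of all 75-base windows of the transcript, the read length before trimming, 56.5% of Eef1g, 41.7% of Eef1a1, 40.6% of Tpt1 and 30.9% of Npm1 occurred in annotated transcripts of other genes, against 11.2% of Pabpc1, under 3% of Eef1b2 (2.95%), Eef1d (2.85%), Eef2 (2.59%) and Eif4b (0.370%), and none of Eef1a2. Levels were therefore expressed per 1000 windows found in no other annotated transcript.

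On that scale Tpt1 had the highest level in both fractions, with 5017 and 5969 in mitochondria and 1543 and 1975 in rest. Eef1a2 (1607 and 1095), Eef1a1 (1019 and 1079) and Eef2 (1187 and 794) followed in mitochondria, where Eef2 overlapped with both forms of eEF1A and these did not overlap with each other. In rest, Eef1a2 (904.0 and 920) and Eef1a1 (820 and 981) overlapped and Eef2 lay lower (633 and 548). Per unshared length Eef1a1 and Eef1a2 were at similar levels in the rest fraction, with means of 900.3 ± 114 and 912 ± 11.3 (SD, n = 2 each). What shared sequence contributed to the lower count of Eef1a1 was not tested.

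Further down, Npm1 (571 and 478) and Eef1g (438 and 400) were the fifth and the sixth in mitochondria, without overlap. In rest Eef1g (265 and 243) stood above Npm1 (135 and 148), which overlapped with Pabpc1 (122 and 167). The lowest levels per length were those of Eif4b, Eef1b2 and Eef1d in rest, and there Eef1d was the lowest with 40.2 and 37.2. This order depends on which transcript the heart uses: the lengths taken here for Eef1b2, Eef1d, Eif4b, Npm1 and Tpt1 were 1939, 2842, 3854, 1633 and 1169 bases, while their shortest complete protein-coding transcripts have 681, 704, 1548, 966 and 996 bases.

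**Figure D2:**
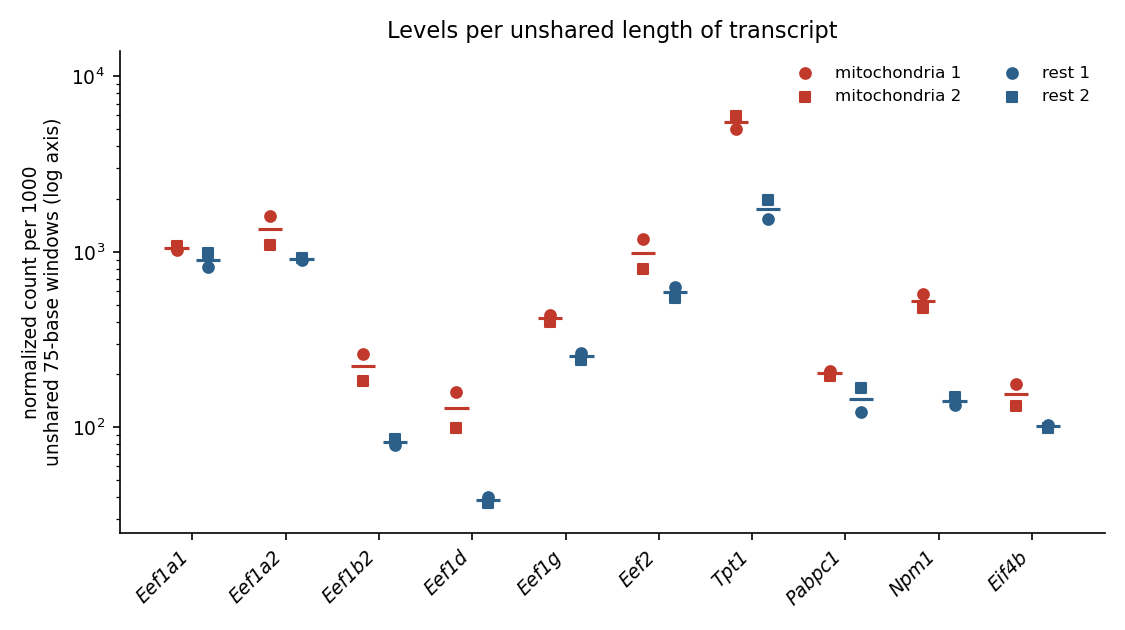
Normalized count per 1000 unshared 75-base windows (log axis) of the 10 mRNAs in each library, with circles for replicate 1, squares for replicate 2 and bars for the fraction means. Tpt1 is the highest in every library, the 2 forms of eEF1A overlap in rest, and Npm1 lies above Eef1g in mitochondria and below it in rest.

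The copies themselves were listed with values for 7 of the 10 genes. Tpt1-ps3, identical to the Tpt1 transcript over 519 bases, had 678 and 546 normalized counts in mitochondria and 176 and 165 in rest. Gm4366, a copy of Eef1g with 99.6% identity over 1342 bases, had 93 and 56 against 29 and 33. Gm13456, the closest listed copy of Eef1a1 with 98.6% identity over 1317 bases, had 108 and 138 against 59 and 88. Both mitochondrial values lay above both rest values in these copies and in 13 of the 20 listed pseudogene copies in all. The share of all genes tested was 27.7%, and the fractions overlapped in the other 7 copies. Among these 7 were Gm16580, a copy of Pabpc1, with 12 and 36 against 17 and 27, Gm13050, a copy of Eef2, with 15 and 0 against 11 and 16, and Gm9512, a copy of Eef1a1, with 4 and 13 against 11 and 24. Such low values rest on few reads, as 11.6 normalized counts in mitochondrial replicate 1 stand for 3 reads.

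The 4 listed pseudogene copies of Npm1 (Gm9118, Gm5611, Gm6477 and Gm14681) summed to 77 and 128 in mitochondria and 16 and 22 in rest. Other listed copies were Tpt1-ps5 and Tpt1-ps6 for Tpt1, Gm5525 for Eef1g, and Gm43712 for Eef1b2, with 8 for Eef1a1 in all. Reads of a gene and of its copy cannot be told apart where the sequences are the same. When the pseudogene copies were added to their gene, a choice made after seeing the data, the log2 fold change became 1.67 for Tpt1, 1.96 for Npm1, 0.83 for Eef1g, 1.47 for Eef1b2 and 0.27 for Eef1a1, a shift smaller than the SE in each case.

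Exons of 2 of the genes also overlap those of a listed neighbour. Eef1b2 overlaps Ndufs1 on the opposite strand, which encodes a subunit of respiratory complex I and had 1313 and 1064 normalized counts in mitochondria and 1122 and 1022 in rest. Eef1d overlaps Naprt on the same strand, which had 27, 8, 11 and 5 in the same order of libraries. Libraries were made with a stranded kit, but the use of strand in counting is not given in the sources used here, so the values of Eef1b2 are uncertain where the exons overlap.

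Protein-coding genes of similar abundance served as the measure of what such an mRNA does in these libraries. For each gene they were the nuclear protein-coding genes whose mean normalized count lay within 1.5-fold of its own, 67 to 1257 genes. Their median log2 fold changes ran from -0.04 to 0.70 with a median of 0.08, and 9 of the 10 mRNAs lay above the median of their own neighbours, Eef1a2 being the exception (0.54 against 0.69). Among genes with a mean like that of Tpt1, 4 of 69 had a larger fold change, and among those like Npm1 16 of 783 did. Eef1d and Eef1b2 exceeded their neighbours' medians by 1.72 and 1.40, whereas Eef1a1 and Eef2 were within 0.02 and 0.03 of theirs. These genes are a description, and no test was made on them.

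Transcript length moved with the fold change. Among 5243 nuclear protein-coding genes with a mean above 50 normalized counts, Spearman's rho between transcript length and log2 fold change was -0.591, a correlation across genes that share the same 4 libraries. Genes of up to 1000 bases had a median log2 fold change of 1.499, those of 1500 to 2000 bases 0.56 and those above 6000 bases -0.59. The 10 mRNAs have a median length of 2011.5 bases, compared with 3376 for nuclear protein-coding genes. Within the set the rho was -0.224 (n = 10), and Eef1d and Npm1 lay farthest above the median of their length class.

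**Figure D3:**
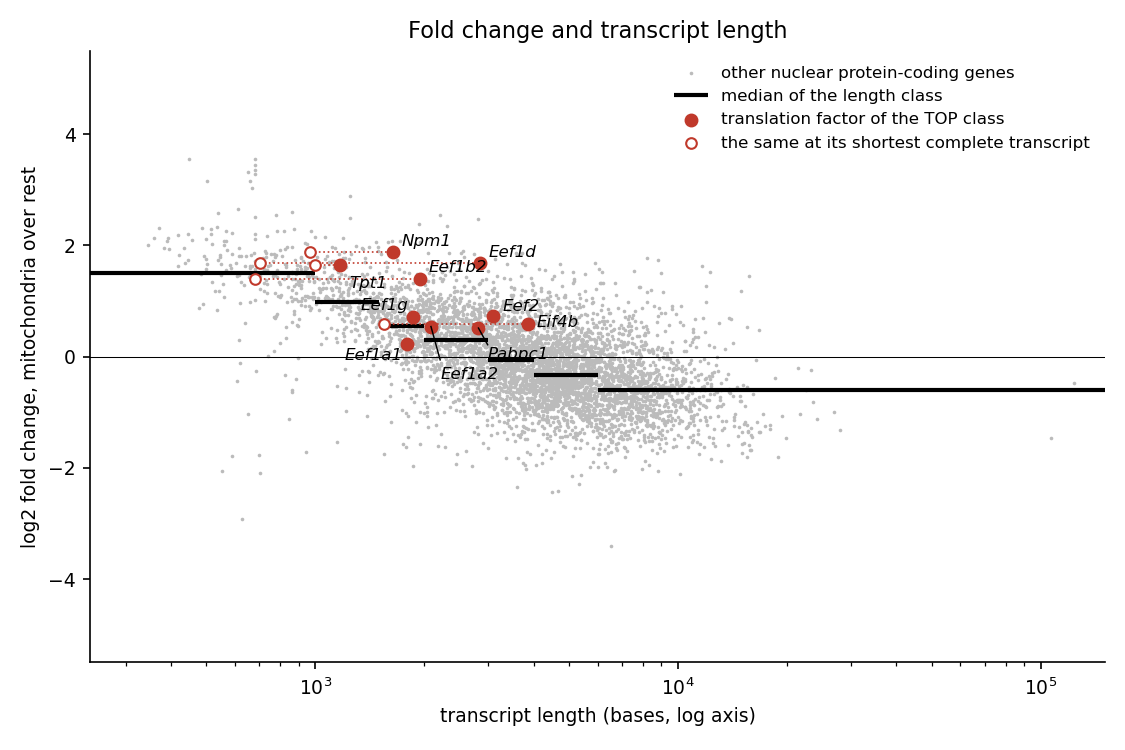
Log2 fold change of mitochondria over rest against transcript length (log axis, bases) for nuclear protein-coding genes with a mean above 50 normalized counts (grey), medians of 7 length classes (black bars), and the 10 mRNAs at the length used here (filled) and at their shortest complete protein-coding transcript (open). Short transcripts have higher fold changes, with class medians from 1.499 to -0.59, and at their shortest transcripts Eef1b2 and Eef1d fall among genes of like fold change; all values are in the deposited scaling, and scaling to the library total turns all 10 negative.

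When neighbours had to lie within 1.5-fold in length as well as in mean, their median log2 fold changes rose to a median of 0.63. Both mitochondrial values lay above both rest values in 38.5% (Eif4b) to 100% (Tpt1) of these neighbours. The share called higher was 1.67% (Eef1d) to 14.6% (Eef1a1). Then 8 of 10 lay above their neighbours, and both forms of eEF1A lay below. Eef1a1 had 0.23 against 0.84 among 48 genes, of which 41 were above it, and Eef1a2 had 0.54 against 0.84 among 20 genes. Npm1 exceeded its 113 neighbours by 1.03 and Tpt1 its 10 neighbours by 0.68. Eef1g, Pabpc1 and Eef2 exceeded theirs by 0.09, 0.18 and 0.30, each less than the distance between the neighbours' quartiles.

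The length of 5 of the genes, however, is not settled by the annotation. With the shortest complete protein-coding transcript in place of the one used here, a choice made after seeing the data, the median of the neighbours' medians was 0.87 and 6 of 10 mRNAs lay above their neighbours. Eef1b2 (1.40 against 1.55) and Eif4b (0.59 against 0.91) then lay below, Eef1d exceeded its neighbours by 0.18 and Tpt1 by 0.10, and Npm1 by 0.58. Npm1 alone stayed above the upper quartile of its neighbours under that choice. Of the neighbours of Tpt1 and Npm1, 40% and 41.2% were then called higher. Both mitochondrial values lay above both rest values in 90% and 92.6% of them. The neighbours kept their own lengths, and what length or the adapted fragmentation contributed to any of these differences was not tested.

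**Figure D4:**
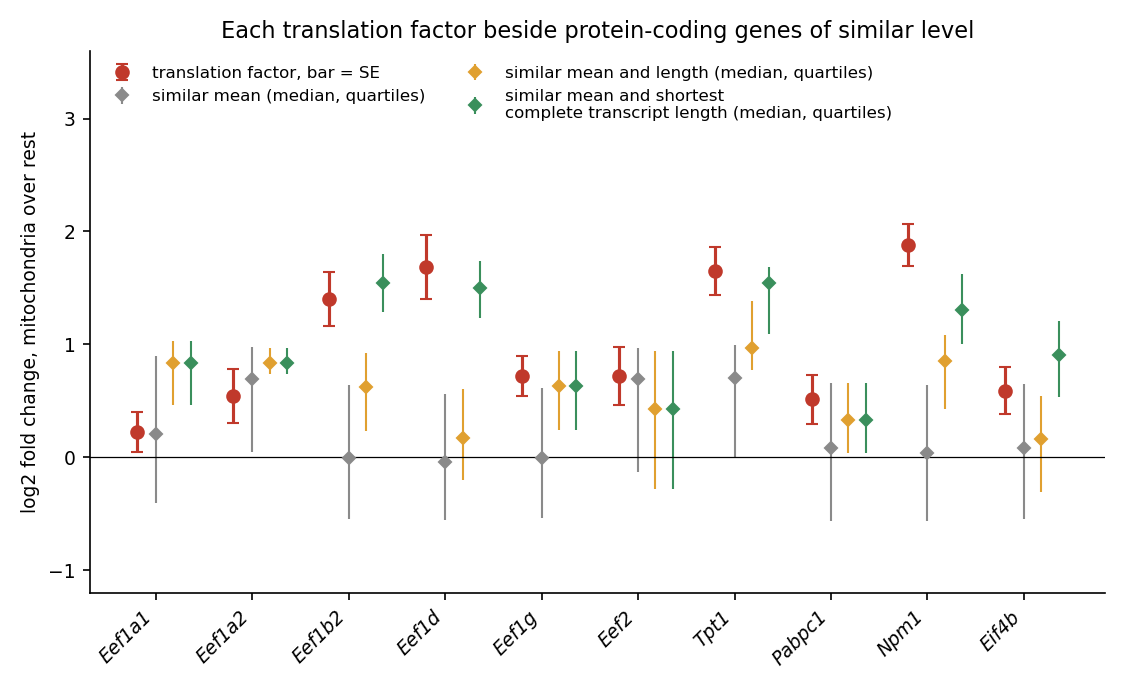
Log2 fold change of each of the 10 mRNAs (red, bar = SE) beside the median and quartiles of protein-coding genes of similar mean (grey), of similar mean and length (orange) and of similar mean and shortest complete transcript length (green). The excess over genes of similar mean is 1.72 for Eef1d and 1.40 for Eef1b2, and with the shortest transcripts it is 0.18 and -0.15; fold changes are in the deposited scaling and all 10 are negative when scaled to the library total.

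Other genes of translation were compared in the same fit, in lists that were written with earlier results of these data known. Of 39 other initiation factors 3 were called higher and none lower in limma, 29 had both mitochondrial values above both rest values, and the median log2 fold change was 0.56, where 2.16% of all genes tested were called higher and 27.7% lay above in this way. The 3 were Eif3g and Eif3a, subunits of the scaffold factor eIF3, and Eif5b, which joins the ribosomal subunits. Eif3a had 2610 and 2365 normalized counts in mitochondria and 971 and 1020 in rest (log2 fold change 1.32, SE 0.164, limma adjusted p = 0.0427), although its transcript has 5125 bases. Eif5b, with 7797 bases, had 964 and 1028 against 381 and 452 (1.26, adjusted p = 0.0461), and Eif3g had 283 and 222 against 87 and 99 (1.42, adjusted p = 0.0487). Eif3a and Eif5b thus had a fold change well above the medians of -0.32 and -0.59 in their length classes.

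None of the 13 tested elongation and termination factors outside the set was called, with a median of 0.31 and both mitochondrial values above both rest values in 6 and below in 3, against 27.7% and 33.4% of all genes tested. Eif5a, which helps ribosomes past difficult peptide bonds, had 333 and 235 against 202 and 162 (0.63, limma adjusted p = 0.181). Eef2k, the kinase that switches off eEF2, had 81 and 59 in mitochondria and 111 and 99 in rest (-0.59, limma adjusted p = 0.195), so the mRNAs of the factor and its kinase had differences of opposite sign, neither of which passed the test. Of 8 tested poly(A) binding proteins and partners none was called either, 4 lay above and 3 below without overlap against the same shares of all genes, and Pabpc4, the relative of Pabpc1, had 937 and 847 against 395 and 474 (1.04, limma adjusted p = 0.0548).

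**Figure D5:**
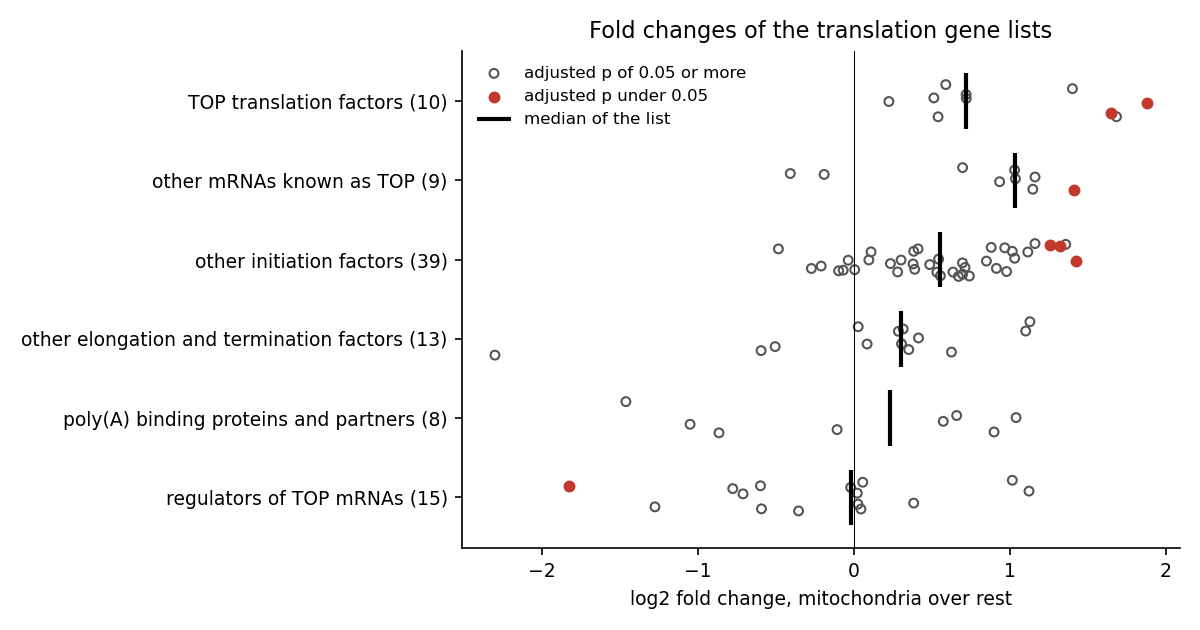
Log2 fold change of mitochondria over rest, in the deposited scaling, for each gene of 6 translation lists, with the number of genes tested in brackets, filled points for an adjusted p under 0.05 and a bar at the median. Medians run from 1.03 for other mRNAs known as TOP and 0.72 for the 10 translation factors to -0.02 for regulators of TOP mRNAs, and under scaling to the library total all 10 translation factors are negative.

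Of 9 other mRNAs known to carry a TOP tract 7 had both mitochondrial values above both rest values, against 27.7% of all genes tested. In limma 1 was called higher, against 2.16% of all genes, and the median log2 fold change was 1.03. Eif3e, Eif3f and Eif3h lay above in this way and are counted among the other initiation factors as well. The exceptions were Naca, a chaperone of nascent chains, with 976 and 834 normalized counts in mitochondria and 1296 and 1104 in rest (-0.41), and the intermediate filament gene Vim with 542 and 684 against 553 and 872 (-0.19), both named after their values were seen. The gene called was Nap1l1, a histone chaperone, with 658 and 645 normalized counts in mitochondria and 212 and 281 in rest (1.41, limma adjusted p = 0.0469). Rack1, a protein of the small ribosomal subunit, had 542 and 388 against 209 and 204 (1.15, limma adjusted p = 0.0604). Cytosolic ribosomal protein mRNAs, the main body of the TOP class, had a median of 1.40 over 76 genes with a median length of 882 bases, compared with 0.72 for the 10 translation factors. Of the 76, 75 (98.7%) had both mitochondrial values above both rest values and 40 (52.6%) were called higher in limma. The separation seen for the 10 translation factors was thus not particular to them.

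Of 15 regulators of the class 7 had both mitochondrial values below both rest values and 3 above, against 33.4% and 27.7% of all genes tested. Their median log2 fold change was -0.02 at a median length of 4586 bases, a length class with a median of -0.32, and no test compared them with the 10 translation factors. Larp1, which holds TOP mRNAs back by binding their cap, had 271 and 219 in mitochondria and 312 and 311 in rest (-0.35, limma adjusted p = 0.277). Mtor had 221 and 151 against 324 and 303 (-0.77, adjusted p = 0.122 in limma), and Rps6kb1, the S6 kinase downstream of it, had 89 and 51 against 101 and 104 (-0.60, adjusted p = 0.285 in limma). The gene called lower was Tia1, an RNA-binding protein of stress granules that represses TOP mRNAs, with 35 and 38 in mitochondria and 120 and 144 in rest (-1.82, SE 0.231, limma adjusted p = 0.0427). Eif4ebp1, an inhibitor of cap-dependent initiation controlled by mTOR, had 147 and 99 against 64 and 47 (1.12, adjusted p = 0.0976 in limma).

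The hearts were not sorted, and in bulk samples fewer cells of a type and less RNA per cell cannot be told apart. All 10 cardiomyocyte markers were listed and tested. Their summed level, to which Ttn and Myh6 contributed most, was 327376 to 432279 normalized counts in mitochondria and 528189 to 595007 in rest. Heart muscle RNA was thus present in both fractions, and the marker sum was lower in mitochondria. Marker by marker the picture was the opposite for most. Of the 10, 6 had both mitochondrial values above both rest values and 3 below, against 27.7% and 33.4% of all genes tested. Their median log2 fold change was 0.74. The summed level of 8 endothelial markers was 1491 to 1678 against 2593 to 2928, that of 6 fibroblast markers 3550 to 8382 against 2236 to 3180 and that of 6 macrophage markers 332 to 538 against 205 to 297. Erythroid markers summed to 50 to 341 against 440 to 824, and smooth muscle markers, of which 3 of 4 were listed, to 136 to 441 against 598 to 1416. The fibroblast and macrophage sums and the median of the cardiomyocyte markers thus lay on the same side as the translation factors. The summed level of the cardiomyocyte markers lay on the opposite side, as did the endothelial, erythroid and smooth muscle sums. What any of these cell types contributed to the values of the 10 mRNAs was not tested.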

How the data were processed

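RNA-seq values of 2 mitochondrial and 2 rest libraries were used. The authors trimmed reads with Trimmomatic, aligned them with STAR to mm10 and counted reads at least partly in exons with featureCounts, excluding reads of several genes or regions; the submitters' processing notes give versions 0.39, 2.7.10a and 2.0.2, and DESeq2 1.30.1. The deposited values are normalized counts, scores made by the authors by dividing counts by a size factor and rounding, so no count test was run. Use of strand and any filter on low genes are not given in the sources used here.

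Log2(normalized count + 1) was fitted with limma 3.58.1 (trend, empirical Bayes; R 4.3.3) for the 12150 genes with at least 10 in at least 2 libraries, with Benjamini-Hochberg adjustment and a threshold of 0.05; fold changes are on this scale, which understates those of low genes. Alternatives were recomputed size factors, the trimmed mean of M-values (TMM), 2 total scalings, other filters and pseudocounts, a replicate block and each library left out, where the lone library of a fraction is assumed to vary like those of the other. Transcripts and lengths came from GENCODE M21 (GRCm38), 1 transcript a gene, for all 10 genes and 12319 of 12321 protein-coding genes. Copies were sought with blastn 2.17.0 among annotated transcripts (at least 95% identity over at least 75 bases). Other steps ran in Python 3.11.15 with scipy 1.17.1, pandas 2.3.3, numpy 2.4.6, and matplotlib 3.10.9 for plots. The fit was tested on simulated data.

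The 10 genes, the gene lists and the tests were chosen with earlier results of these data known. Named were all 10, Rack1, Larp1, Mtor, Rps6kb1, Eif4ebp1, Eef2k, Eif5a and Pabpc4, list genes with an adjusted p under 0.05 (up to 5 a direction), and listed copies. Ndufs1, Naprt, Ttn, Myh6, Eif3e, Eif3f and Eif3h are named outside this rule. The 5' sequences of Eef1b2 and Eef2 are not reported here.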

Additional observations from a re-analysis of the deposited data

How the results depend on the processing

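Genes called higher and lower (262 and 169) became 544 and 344 with TMM, 2 and 12022 with scaling to the library total, 129 and 3819 to the total without mitochondrially encoded RNA, 790 and 670 with a mean above 50, 536 and 580 with a pseudocount of 10, and 630 lower without a filter. With a pseudocount of 0.1 limma called 0 and 0 (1694 and 1754 at an unadjusted p under 0.05), and with any library left out 0 to 0 in both directions (590 to 2333 and 468 to 3324 unadjusted). Of the 10 mRNAs, 2 called higher became 4 with TMM, with a pseudocount of 10 and with nuclear protein-coding genes alone (added after seeing the data), 5 with a mean above 50, 1 with the total without mitochondrially encoded RNA, 0 with the library total and with a pseudocount of 0.1 (7 unadjusted), and 0 to 0 with a library left out (4 to 8 unadjusted); 10 were called lower with the library total. Other translation genes called higher, 4, became 9 with TMM and a pseudocount of 10, 15 with a mean above 50, 0 with both totals and a pseudocount of 0.1, and 0 to 0 with a library left out (alternatives added after seeing the data).

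The median log2 fold change of the 10 was -3.26 with the library total and -0.14 without mitochondrially encoded RNA. Under the library total the values were -3.76 for Eef1a1, -3.44 for Eef1a2, -2.57 for Eef1b2, -2.28 for Eef1d, -3.25 for Eef1g, -3.26 for Eef2, -2.34 for Tpt1, -3.46 for Pabpc1, -2.09 for Npm1 and -3.39 for Eif4b, and under the total without mitochondrially encoded RNA -0.64 for Eef1a1, -0.32 for Eef1a2, -0.14 for Eef1g, -0.14 for Eef2, -0.35 for Pabpc1 and -0.27 for Eif4b. The difference in the log2 ratio of Eef1a1 to Eef1a2 ran from -0.63 to 0.0027 with a library left out. The median over genes of similar mean became 0.63 with length and 0.87 with the shortest transcripts. The cause of these shifts was not tested.

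The replicate block gave 470 higher and 309 lower genes and 4 of the 10 mRNAs, adding Eef1b2 and Eef1d, and changed no other call among the 10. Same-numbered libraries deviated together weakly (Pearson r = 0.130 across 12150 genes, 2 pairs), and the labels do not say that a number marks shared animals, so the libraries were not treated as paired. Values of the mitochondrial libraries came in steps of 3.87 and 2.55 normalized counts, the worth of a read in each. What set the size of these steps was not tested.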
